A study of Mus musculus with 16 samples.

Results

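Cluster 17 is the group of cells that the authors labelled red blood cells (RBC) in mouse spinal cord after injury. Its members were taken by the authors' cluster number, and they were 119 of 18203 kept cells, or 0.654%. The label was checked against the adult haemoglobin genes Hba-a1, Hba-a2, Hbb-bs and Hbb-bt. In 47 of the 119 cells these genes held at least 10% of the unique molecular identifiers (UMIs, which count captured RNA molecules), and in 34 cells they had 0 UMIs. The label therefore did not hold for every cell, and the cells are called globin-rich (10% or more) and globin-poor (under 10%) here. The cut at 10% was chosen after the values were seen.

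The study compared spinal cords of Ryk+/+,GFAPcreERT2 mice (called WT here) with those of Rykfl/fl,GFAPcreERT2 mice (called cKO), aged 8 to 10 weeks. Both genotypes carried a tamoxifen-inducible Cre under a human GFAP promoter, which acts in astrocytes, and per the methods all mice received tamoxifen. Cords were taken from uninjured mice, which the labels call Sham, or from mice injured (SCI) 1 d, 7 d or 14 d earlier, with 2 mice in each of 8 groups and 1 library per mouse. The mice had been perfused, and the sliced cords were digested with pronase in the presence of actinomycin D and cleared of dead cells.

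Red blood cells carry oxygen on haemoglobin, a tetramer of alpha and beta globin chains around haem. Their precursors divide and make haem, globin and a spectrin-based membrane skeleton in the bone marrow, and then lose the nucleus and other organelles, so that mature mouse cells keep little RNA, most of it globin. In the cord they lie within vessels, and they enter the tissue where an injury tears those vessels.

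Several properties of the libraries bear on all values below. WT 1 d mouse 2 had 1 kept cell, outside Cluster 17, and was left out, which left 15 mice. In 6 mice, all of them mouse 2 of their group, the condition written in the deposited cell names differs from the sample title. The titles, which match the cell table, were used. Some comparisons of the Cluster 17 share and of globin outside it are also given within the mice numbered 1, where titles and cell names match. The tests across all genes were not run within those mice alone. The mouse number equals the batch in the cell table. Barcodes shared between libraries were found for 432 cells in all and for 5 cells of Cluster 17, of which 2 shared theirs with another Cluster 17 cell. The cell table holds no doublet calls, doublets were not called here, and none were removed.

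The globin share of single cells ran from 0% to 96.0% in Cluster 17, with a median of 0.578%. Of the 119 cells, 34 had no globin UMI, 38 had some but under 10%, 20 had 10% to under 50% and 27 had 50% or more. The shares thus formed no single group around a common value. Near the cut, 6 cells had 5% to under 10% and 2 cells had 10% to under 15%, the closest being 9.29% below it and 11.7% above it.

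**Figure D1:**
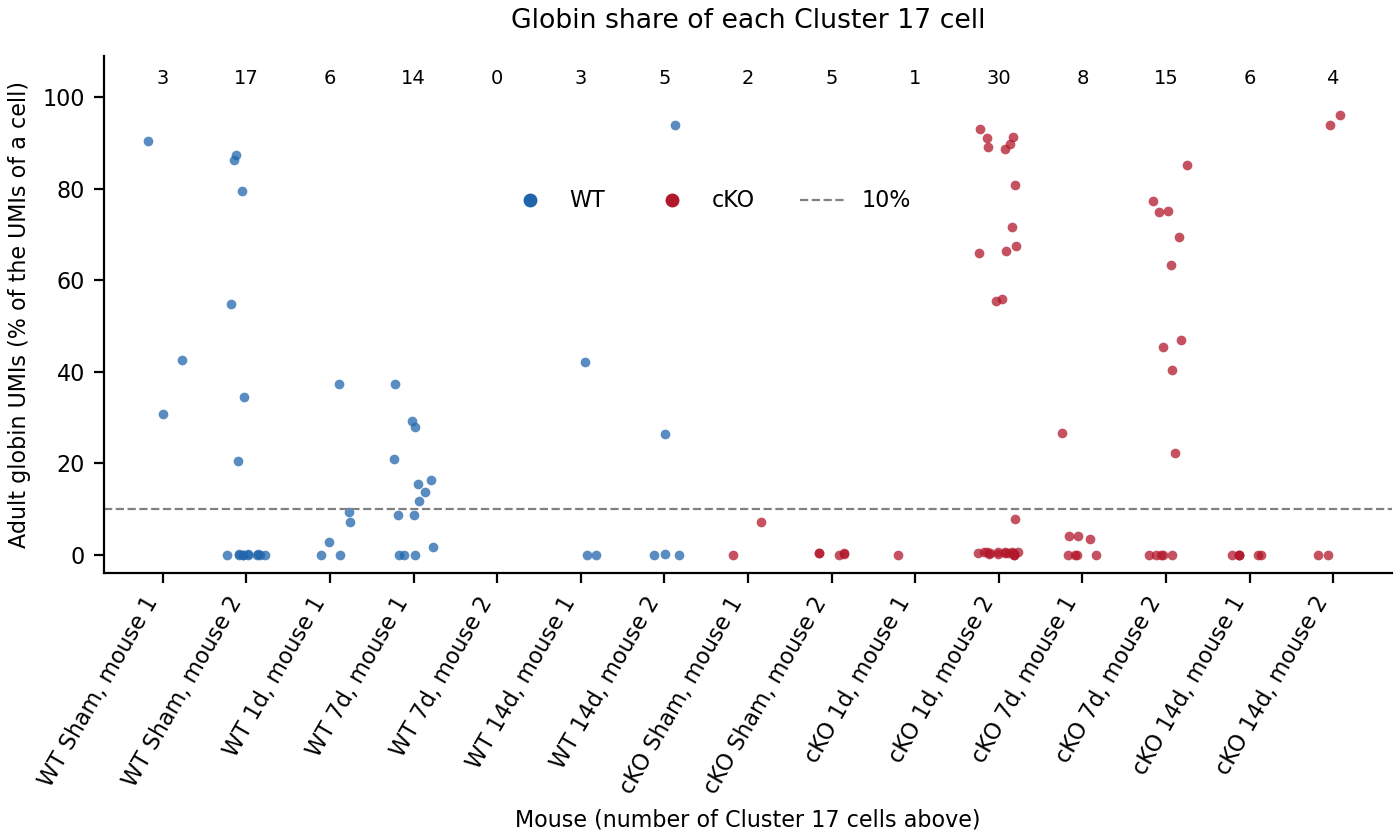
Share of adult globin UMIs in each of the 119 cells of Cluster 17, by mouse. The dashed line marks 10%, and the numbers give the cells of each mouse.

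The globin-rich cells had more UMIs but fewer genes than the globin-poor cells. They came from 10 mice and had a median of 4204 UMIs and 317 genes, with a median globin share of 63.4%. The 72 globin-poor cells came from 13 mice and had a median of 872 UMIs and 579.5 genes, and the other 18084 cells had 1174.5 UMIs and 697 genes. Without globin, the globin-rich cells had a median of 654 UMIs and the globin-poor cells 868.5. The median was 979.5 in cells with 10% to under 50% globin and 563 in those with 50% or more. Shares of cells with a UMI of an erythroid gene below were not matched for depth, and its part in them was not tested. The mitochondrial share had medians of 1.40% in globin-rich and 3.11% in globin-poor cells.

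Globin RNA was also spread outside Cluster 17. Cluster 17 held 146529 of the 196013 adult globin UMIs of the series (74.8%), and 74.4% lay in its 47 globin-rich cells. Outside it, 15.7% of cells had a globin UMI, at a median depth of 1174.5 UMIs per cell, against 71.4% of the cells of Cluster 17 at 1339. A share of at least 10% globin was reached by 9 cells outside, 5 of them among the 4201 cells of Cluster 1 (labelled endothelial) and 1 each in Clusters 2, 3, 4 and 10. Of these 9 cells, 6 reached 50%. RNA of lysed cells that enters droplets was not removed, and single globin UMIs in other cells cannot be told apart from it.

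Hbb-bs, which encodes a beta chain, had the most UMIs of the 4 genes, 77319 in Cluster 17, with UMIs in 100% of globin-rich and 36.1% of globin-poor cells. Hba-a1, an alpha chain gene, had 34161 UMIs, also in 100% of globin-rich and 36.1% of globin-poor cells. The beta chain gene Hbb-bt had 17688 UMIs, in 97.9% and 26.4%, and the alpha chain gene Hba-a2 had 17361, in 100% and 30.6%. Since the cut used the UMIs of these 4 genes, their high shares in globin-rich cells follow largely from it.

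The balance of alpha and beta chain RNA was compared by mouse. Among the 9 mice with at least 100 globin UMIs in globin-rich cells, the alpha genes held between 22.9% (WT 14 d mouse 1) and 40.6% (cKO 14 d mouse 2) of these UMIs, with a median of 33.7%. Over the 47 cells the alpha share had a median of 34.9% and quartiles of 32.1% and 38.3%. These are shares of captured UMIs and give no protein ratio.

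The split within the alpha pair and within the beta pair is less certain than their sum. Of 650 windows of 50 bases in the longest Hba-a1 transcript of GENCODE M21, 439 (67.5%) also occur in Hba-a2, and of 579 such windows in Hbb-bs, 381 (65.8%) occur in Hbb-bt. None of the Hba-a1 windows occur in Hbb-bs. Reads from shared windows fit either gene of a pair, and how the authors' counts treated them was not tested. As counted, Hba-a1 held a median of 61.1% of the alpha UMIs of a cell and Hbb-bs 84.3% of the beta UMIs.

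The globin genes of earlier life were nearly absent. Of 8 listed embryonic and other globins, Hba-x, Hbb-y, Hbb-bh0, Hbb-bh1, Hbb-bh2 and Hbb-bh3 had 0 UMIs in Cluster 17. Hbq1b had 18 UMIs, and the list as a whole had 19, all in globin-rich cells. The globin RNA was thus that of the adult set.

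The promoters of the 4 adult globins are shown because these genes define the cut and hold most globin UMIs. All 4 matched the RefSeq promoter table (GRCm38.p6), and the 120 bases before the start of transcription are printed from 5′ to 3′ on the strand of the gene. Capitals mark matches on either strand of 3 motifs: the TATA box letters TATAA (read TTATA on the other strand), the CCAAT box letters CCAAT (read ATTGG), and the CACCC box letters CACCC (read GGGTG). The GATA letters GATAA (read TTATC) were searched too and do not occur in these 4 windows. In Hbb-bt a reverse match of CCAAT adjoins a forward match, without overlap. Hba-a1 lies at chr11:32283552-32283671 on the plus strand and Hba-a2 at chr11:32296372-32296491 on the plus strand, whereas Hbb-bs lies at chr7:103827929-103828048 and Hbb-bt at chr7:103813924-103814043 on the minus strand.
Hba-a1: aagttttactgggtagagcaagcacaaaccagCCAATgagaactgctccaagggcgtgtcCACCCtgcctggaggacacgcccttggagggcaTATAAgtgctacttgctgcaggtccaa
Hba-a2: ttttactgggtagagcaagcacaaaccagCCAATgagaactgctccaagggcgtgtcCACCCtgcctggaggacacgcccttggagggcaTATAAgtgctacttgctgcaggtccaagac
Hbb-bs: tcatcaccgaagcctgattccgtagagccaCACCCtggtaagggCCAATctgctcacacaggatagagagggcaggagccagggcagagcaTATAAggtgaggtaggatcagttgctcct
Hbb-bt: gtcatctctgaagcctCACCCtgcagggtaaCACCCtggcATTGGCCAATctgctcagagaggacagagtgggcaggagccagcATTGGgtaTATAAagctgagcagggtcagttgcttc

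All 4 windows hold the 3 boxes. Among all 32851 promoters of the table over the same 120 bases and on either strand, TATAA occurs in 11.8%, CCAAT in 21.3%, CACCC in 31.7% and GATAA in 10.5%, and the first 3 occur together in 0.688%. TATAA begins 27 bases before the start in Hba-a1, 30 in Hba-a2, 29 in Hbb-bs and 28 in Hbb-bt. Hba-a1 and Hba-a2 share a run of 117 of the 120 bases, whereas the longest run shared by Hbb-bs and Hbb-bt has 14 bases. These matches describe the letters and show no binding.

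Beyond globin, lists of erythroid genes were compared between globin-rich and globin-poor cells, per UMI that is not globin. Since the cells were grouped by their expression and the cut used globin, these are descriptions with no test. As a background, among the 4375 genes with a UMI in at least 10% of the cells of Cluster 17, 10.9% were at least 2-fold higher in globin-rich cells and 15.3% at least 2-fold higher in globin-poor cells (50 CPM, UMIs of a gene per 1000000, added to each level). Of the UMIs of the globin-rich cells, globin included, 43.4% came from cKO 7 d mouse 2, and 39.7% of those of all Cluster 17 cells. Sums of the lists are therefore also given without that mouse. Without it 8.69% and 17.3% of the same genes were at least 2-fold higher in globin-rich and in globin-poor cells. The folds and shares of single genes below include that mouse. A gene can pass this filter through either kind of cell, and genes sparse in both drop out, so the counts of genes below depend on it, and counts with other filters are given after the lists.

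Haem synthesis genes were higher in the globin-rich cells. Of 12 listed genes, 10 had a UMI in at least 10% of the cells, and all 10 were at least 2-fold higher in globin-rich cells, with a median of 8.98-fold. Alas2, which makes the erythroid enzyme of the rate-limiting step, had UMIs in 63.8% of globin-rich and 5.56% of globin-poor cells, against 0.470% of other cells. Others of the list were seen in 42.6% (Slc25a39), 34.0% (Fech, which inserts iron into haem), 31.9% (Urod), 21.3% (Abcb10), 19.1% (Alad and Tmem14c) and 14.9% (Cpox and Uros) of globin-rich cells. The summed list had 102 UMIs per 10000 in globin-rich and 3.63 in globin-poor cells, and 69.2 and 3.43 without cKO 7 d mouse 2. At least 1 UMI of the list was seen in 68.1% of globin-rich, 38.9% of globin-poor and 37.3% of other cells. Within the 9 mice that had both kinds of cell, the summed list was higher in the globin-rich cells in 7. In WT 1 d, WT 14 d and cKO 7 d mouse 1 such comparisons by mouse, here and below, rest on a single globin-rich cell. Without cKO 7 d mouse 2 all 10 genes stayed at 2-fold or more, with a median of 4.40-fold.

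Genes of the red cell membrane and its skeleton showed the same direction, but rested largely on a single mouse. Of 22 listed genes, 14 had a UMI in at least 10% of the cells, all of them at least 2-fold higher in globin-rich cells (median 11.3-fold). A UMI of the list was seen in similar shares of cells, 57.4% of globin-rich, 55.6% of globin-poor and 52.4% of other cells. Slc4a1, the anion exchanger band 3, had UMIs in 31.9% of globin-rich and 0% of globin-poor cells. Others were Epb41 (42.6% of globin-rich cells), Mpp1 (34.0%), Cd47 (31.9%), Ank1 (27.7%), Rhd (25.5%), Kel (23.4%), Gypc, Sptb and Stom (21.3% each), and Add1, Add2 and Tmod1 (8 of 47 cells each). The summed list had 213 UMIs per 10000 in globin-rich and 6.43 in globin-poor cells, but 45.9 and 4.73 without cKO 7 d mouse 2. Without that mouse 11 of the 14 genes were at least 2-fold higher, with a median of 3.19-fold. The ratio of the 2 sums was thus 33.1 with and 9.72 without it, and the globin-rich cells were higher in 7 of 9 mice.

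Red cell enzymes and antioxidants had at least 1 UMI in 76.6% of globin-rich, 63.9% of globin-poor and 64.0% of other cells. Of 13 listed genes, 11 had a UMI in at least 10% of the cells, and 9 of these were at least 2-fold higher in globin-rich cells, whereas Cyb5r3 was 1.93-fold higher and Sod1 lower, at 0.824-fold. Gpx1, a glutathione peroxidase, had UMIs in 55.3% of globin-rich cells, Bpgm, which makes 2,3-bisphosphoglycerate, in 53.2%, and the peroxiredoxin gene Prdx2 in 46.8%, beside 29.2%, 6.94% and 18 of 72 (Prdx2) of the globin-poor cells. Car2, a carbonic anhydrase, was seen in 42.6%, Blvrb in 40.4%, Glrx5 in 36.2%, Hagh in 31.9%, Cat in 21.3%, Cyb5r3 in 8 of the 47 cells, and Hk1 and Sod1 in 14.9%. Pklr, the red cell pyruvate kinase, had 0 UMIs. The list summed to 267 UMIs per 10000 in globin-rich and 15.4 in globin-poor cells, or to 161 and 10.3 without cKO 7 d mouse 2, and the globin-rich cells were higher in 7 of 9 mice. In the fold count without that mouse, 8 of 11 genes were at least 2-fold higher.

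Genes of late maturation and organelle clearance, summed as a list, were higher in the globin-rich cells of all 9 mice. Of 21 listed gene symbols 20 were in the counts, and Fam46c was not. Of these genes 19 had a UMI in at least 10% of the cells, and all 19 were at least 2-fold higher in globin-rich cells (median 7.18-fold). A UMI of the list was seen in 91.5% of globin-rich, 79.2% of globin-poor and 78.7% of other cells. Mkrn1 was seen in 63.8% of globin-rich cells (19.4% of globin-poor and 12.6% of other cells), the ubiquitin gene Ubb in 61.7% (48.6% and 38.4%), Isg20 in 57.4% (2.78% and 1.18%), Gabarapl2 in 55.3% (19.4% and 21.0%), the mitophagy receptor gene Bnip3l in 53.2%, Map1lc3b in 51.1%, Ube2l6 and Tent5c in 44.7% each, and Rnf10 in 40.4%. Ube2o, a ubiquitin ligase that clears ribosomes, was seen in 36.2%, Trim10 in 31.9%, Ube2h in 29.8%, Bcl2l1 in 27.7%, Tmcc2 and Wdr26 in 25.5% each, Foxo3 in 23.4%, and Fbxo7 and Xpo7 in 14.9% each. The list summed to 209 UMIs per 10000 in globin-rich and 19.2 in globin-poor cells, and the ratio of the sums was 10.9 with and 7.56 without cKO 7 d mouse 2. Of the 19 genes, 16 were at least 2-fold higher without it.

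Iron genes differed less between the 2 kinds of cell. Of 10 listed, 9 had a UMI in at least 10% of the cells and 6 of these were at least 2-fold higher in globin-rich cells (median 2.42-fold). The ferritin genes Fth1 and Ftl1 were seen in 93.6% and 78.7% of globin-rich cells, the mitochondrial iron carrier gene Slc25a37 in 42.6%, the transferrin receptor gene Tfrc in 31.9%, Ncoa4 in 29.8% and the exporter gene Slc40a1 in 12.8%. Pcbp2 (23.4%), Pcbp1 (10.6%) and Slc11a2 (8.51%) were the 3 below 2-fold. The list summed to 224 UMIs per 10000 in globin-rich, 66.4 in globin-poor and 96.3 in other cells, and it is abundant in many cells. Without cKO 7 d mouse 2 the sums were 229 in globin-rich and 87.0 in globin-poor cells, and 6 of the 9 genes were at least 2-fold higher.

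Transcription factors and receptors of erythroid progenitors were sparse. Of 11 listed genes 10 were measured, and 4 had a UMI in at least 10% of the cells: Lmo2 (29.8% of globin-rich cells), Eif2ak1 (8 of 47 cells), Tal1 (14.9%) and Zfpm1 (12.8%), all at least 2-fold higher in globin-rich cells. Their median was 5.05-fold, and without cKO 7 d mouse 2 it was 2.40-fold with 3 of the 4 genes at 2-fold or more. By mouse the globin-rich cells were higher in the summed list in 5 and lower in 2 of 9. Gata1, the main erythroid GATA factor, was seen in 6 of the 20 cells with 10% to under 50% globin (30%) and in 0 of the 27 cells with 50% or more. Klf1, which acts at the beta globin promoter, was seen in 5 and 0 of them, and the erythropoietin receptor gene Epor in 5 and 2. The cells highest in globin thus had UMIs of Epor alone among these 3 genes. Depth differed between the 2 ranges, with medians of 979.5 and 563 UMIs that are not globin. All UMIs of the 3 genes came from cKO 7 d mouse 2 and WT uninjured mouse 2, so the counts of 0 do not show absence. These genes were also seen below the cut: of 32 Gata1 UMIs 17 were in 2 globin-poor cells, and of 38 Klf1 UMIs 6 were in 2 such cells. Kit, the receptor of early progenitors, had a UMI in 0 globin-rich and 8 of 72 globin-poor cells. The list summed to 30.9 UMIs per 10000 in globin-rich and 5.82 in globin-poor cells, or to 8.64 and 1.98 without cKO 7 d mouse 2.

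With no filter beyond a UMI in Cluster 17, all 12 haem synthesis genes, all 22 membrane genes and all 20 late maturation genes were at least 2-fold higher in globin-rich cells. Without cKO 7 d mouse 2 these were 11, 16 and 16. Enzyme, iron and progenitor genes were less complete, with 10 of 12, 6 of 10 and 8 of 10, and 9, 6 and 5 without that mouse. Of the progenitor genes 1 was at least 2-fold higher in globin-poor cells. Of all 16981 such genes 4.13% were at least 2-fold higher in globin-rich cells. Where genes had to be seen in at least 10% of the globin-poor cells, 3 haem synthesis, 3 membrane and 11 late maturation genes were left. All of these were at least 2-fold higher in globin-rich cells, and without that mouse 3, 2 and 9 were. Of the enzyme genes 7 of 9 were, of the iron genes 3 of 6 and of the progenitor genes 2 of 3, while the third was at least 2-fold higher in globin-poor cells. Over all 5584 genes with this filter the share was 6.39%, and 5.09% without that mouse. Few genes of the first 2 lists can thus be compared without choosing them through the globin-rich cells.

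**Figure D2:**
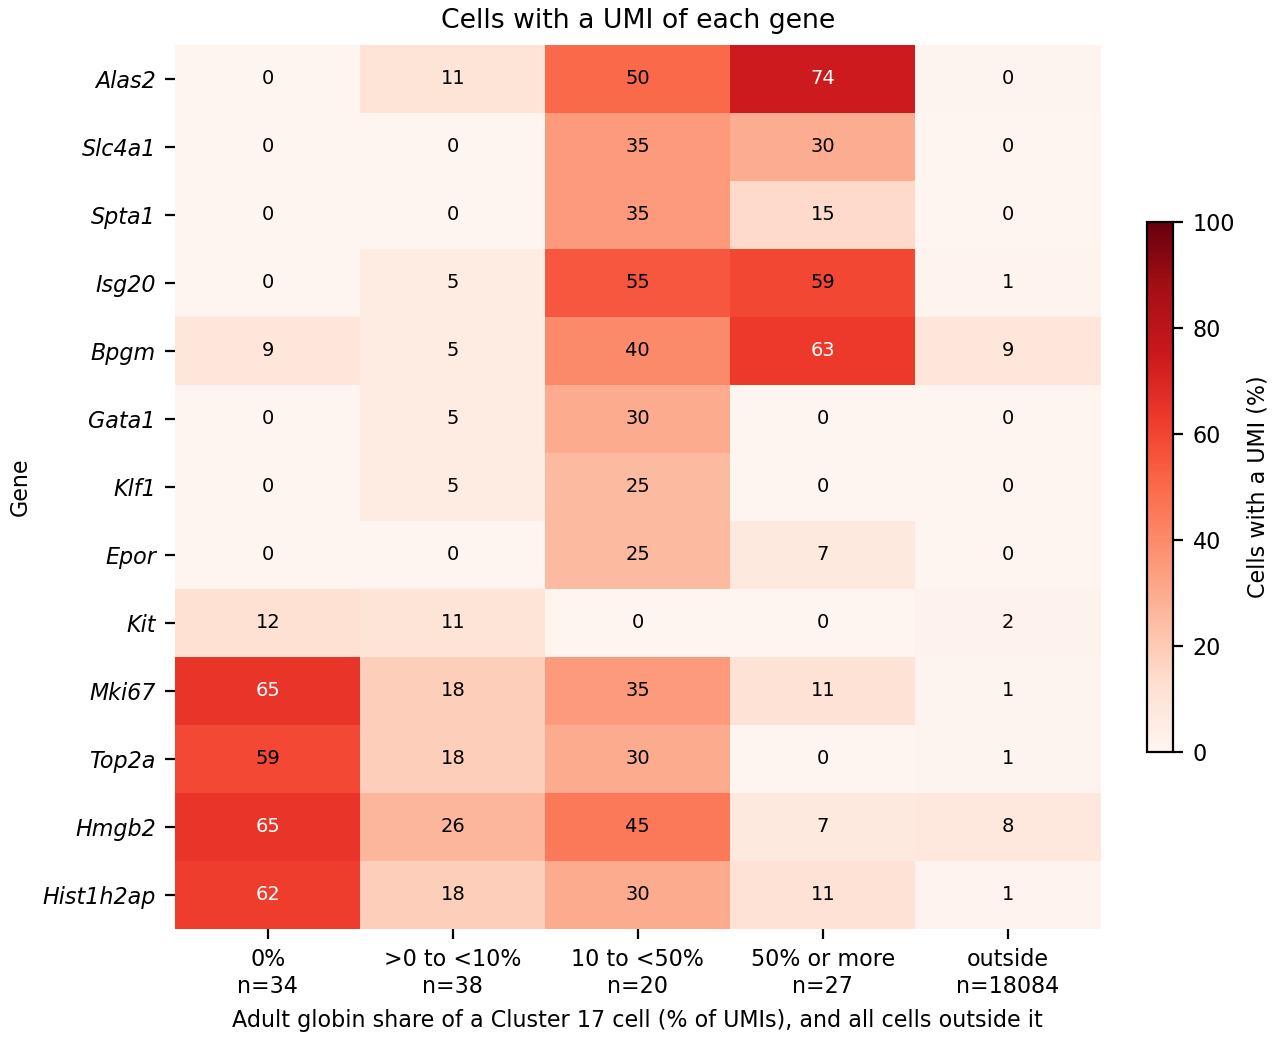
Percent of cells with a UMI of each gene in 4 ranges of the globin share within Cluster 17 and in all other cells. Depth differs between the ranges.

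The genes of nucleated precursors came from few mice. Slc4a1 had 400 UMIs in Cluster 17, of which 379 were in 9 cells of cKO 7 d mouse 2, 17 in 5 cells of WT uninjured mouse 2 and 4 in 1 cell of WT 14 d mouse 1. Gata1, Klf1 and Epor had 29, 35 and 13 UMIs in cKO 7 d mouse 2 and 3, 3 and 1 in WT uninjured mouse 2, and 0 in every other mouse. Slc4a1, Gata1, Klf1 and Epor thus had 4 UMIs or fewer each in every other mouse with globin-rich cells, including cKO 1 d mouse 2, whose 13 globin-rich cells had 0 UMIs of each. Alas2 was more widely spread, with 197 of 330 UMIs in cKO 7 d mouse 2, 37 in cKO 1 d mouse 2, 35 in WT uninjured mouse 1, 25 in WT uninjured mouse 2 and 23 in cKO 14 d mouse 2.

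Many globin-poor cells had RNA of the cell cycle. Mki67, a marker of dividing cells, was seen in 22 of the 34 cells without globin (64.7%), Top2a, which untangles chromosomes, in 20 (58.8%), Hmgb2 in 22 and the histone gene Hist1h2ap in 21 (61.8%). In all other cells Mki67 was seen in 0.531% and Top2a in 0.575%. Since depth differs, cells were thinned to 500 UMIs that are not globin. At that depth at least 1 of the 7 cycle genes was seen in 26 of 32 cells without globin (81.2%, 2 cells left out), in 5 of 33 cells with under 10% (15.2%, 5 left out), in 7 of 12 with 10% to under 50% (58.3%, 8 left out) and in 4 of 15 with 50% or more (26.7%, 12 left out). The share was 3.90% of 15126 other cells (2958 left out) and 35.9% of the cells of Cluster 16, labelled myeloid cells (16 left out). Before thinning, over all cells, the 4 ranges had 85.3%, 31.6%, 45% and 18.5%, other cells 14.5% and Cluster 16 73.9%. The 2 upper ranges were thus higher after thinning because cells with fewer UMIs were left out.

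Within Cluster 17, cycle RNA thus was seen in most cells that lack globin, and it was not limited to them. Of the 34 cells without globin, which came from 13 mice, 29 had a UMI of a cycle gene before thinning. In the cells with 10% to under 50% globin, also before thinning, all 4 cells of cKO 7 d mouse 2 and both cells of WT uninjured mouse 2 had a cycle UMI. None of the 8 cells of WT 7 d mouse 1 did. Depth differed, with 12826 to 25517 UMIs per cell in cKO 7 d mouse 2, 4060 and 8672 in WT uninjured mouse 2, and 326 to 1554 in WT 7 d mouse 1. The pooled cycle list had 74.7 UMIs per 10000 in globin-rich and 50.4 in globin-poor cells, but 27.2 and 54.2 without cKO 7 d mouse 2, which turned the direction. The globin-rich cells were lower in 6 of 9 mice. The other cycle genes of the list, Pcna, Mcm5, Ccnb1 and Cdk1, were seen in 30.6%, 18.1%, 16.7% and 29.2% of globin-poor cells.

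Marker lists of other cell types were counted in all 4 ranges. In the 34 cells without globin, the highest of the lists, where it reached 1% of the UMIs, was that of microglia in 5 cells from 5 mice, of oligodendrocytes in 7, of monocytes and macrophages in 1 and of neutrophil and myeloid cells in 1, and in 20 cells no list reached 1%. In the 38 cells with some globin but under 10%, oligodendrocyte markers led at 1% or more in 20 cells and endothelial markers in 10, and no list reached 1% in 8; of these 38 cells, 15 came from cKO 1 d mouse 2. Endothelial markers led in 12 of the 20 cells with 10% to under 50% globin and oligodendrocyte markers in 1, and 7 had no list at 1%. In the 27 cells with 50% or more these numbers were 1, 12 and 14.

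The endothelial list summed to 60.8 UMIs per 10000 in globin-rich, 12.9 in globin-poor and 55.0 in other cells, and the globin-rich cells were higher in 8 of 9 mice. Without cKO 7 d mouse 2 it had 118 in globin-rich and 18.9 in globin-poor cells. Over all cells of Cluster 17, it had 249 in WT uninjured mouse 1, 222 in WT 7 d mouse 1, 148 in WT 1 d mouse 1, 140 in cKO uninjured mouse 1 and 110 in cKO 7 d mouse 1, and 15.2 or less in every other mouse. All the high values were in mice 1, the first batch. WT 14 d, cKO 1 d and cKO 14 d mice 1 were low, at 4.52, 0 and 2.50. The pooled sums thus mix mice with very different levels, and the part of the batch was not tested.

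Oligodendrocyte RNA was widespread in the series: Mbp, the myelin basic protein gene, was seen in 77.8% of globin-poor, 76.6% of globin-rich and 78.9% of other cells. The oligodendrocyte list reached 1% in 35.2% of all other cells, so oligodendrocyte markers at 1% do not show the kind of a cell. The endothelial and microglial lists reached 1% in 20.1% and 9.87% of them. Of these 18084 other cells, 4201 were in Cluster 1 (labelled endothelial) and 1316 and 813 in Clusters 6 and 10 (microglial). Clusters 4 and 8 (oligodendrocytes) had 1768 and 892. How far each list marks its own clusters was not tested.

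Microglial markers, 6 of 6 with a UMI, summed to 26.4 per 10000 in globin-poor and 1.75 in globin-rich cells, with C1qa the most abundant (410 UMIs). Other cells had 26.9, and the globin-poor cells had 10.5 without the 6 cells of cKO 14 d mouse 1, which held 731 of the 1046 UMIs. Without cKO 7 d mouse 2 they had 41.8. By mouse, over all cells of Cluster 17, the list had 0 and 1.76 in WT uninjured mice 1 and 2, 29.7 in WT 1 d mouse 1, 7.99 in WT 7 d mouse 1, and 3.29 and 18.4 in WT 14 d mice 1 and 2. In cKO mice it had 0.597 and 11.7 uninjured, 0 and 71.5 at 1 d, 54.5 and 0.800 at 7 d, and at 14 d 76.1 and 1.03. High values thus occurred in single mice of several groups.

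Neutrophil and myeloid markers rested on a single cell. Of 10 listed, 8 had a UMI, Mmp8 and Retnlg had 0, and the most abundant, S100a9, had 1199 UMIs, of which 1193 were in 1 cell of WT uninjured mouse 2. That mouse had 536 UMIs of the list per 10000 in Cluster 17, and the next highest mouse, WT 14 d mouse 2, had 5.27. Among the remaining lists, Lyz2 led the monocyte and macrophage markers (124 UMIs), Nkg7 the lymphocyte (22), Itga2b the platelet (8), Bsg the endothelial (587), Rgs5 the pericyte (23), Slc1a2 the astrocyte (127), Cspg5 the oligodendrocyte precursor (113), Meg3 the neuronal (56), Dnah11 the ependymal (4), Dcn the fibroblast (11) and Pmp22 the Schwann cell markers (36). The platelet genes Ppbp, Tubb1, Gp1bb and Treml1 were at 0, and so were the T and B cell genes Cd3e, Trbc2 and Ms4a1.

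Ryk itself had 30 UMIs in Cluster 17, with 11 in cKO 14 d mouse 1 as the highest of a mouse, and Gfap had 44. These counts are too few to compare the genotypes within the cluster.

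Over all of Cluster 17 against the other cells, the 15 largest folds were those of the 4 globins, 6 histone genes, 3 cycle genes, Slc4a1 and Alas2 (50 CPM added to each). Hbb-bs was 231-fold, Hba-a1 210-fold, Hbb-bt 178-fold and Hba-a2 139-fold higher. The linker and core histone genes Hist1h2ap (62.8-fold), Hist1h1b (26.0), Hist1h2ae (17.1), Hist1h4d (13.9), Hist1h1e (12.1) and Hist1h2ab (9.35) followed with Top2a (22.8), Mki67 (17.7), Hmgb2 (15.6), Slc4a1 (13.5) and Alas2 (10.8). Of the 2125 UMIs of Hist1h2ap, 1223 were in WT uninjured mouse 2 and 446 in cKO 7 d mouse 2. The fold of Slc4a1 rests largely on cKO 7 d mouse 2, which had 379 of its 400 UMIs, and 197 of the 330 UMIs of Alas2.

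Genes with many UMIs were mostly those abundant in all cells. After the globins, the highest included Gm42418 (11386 UMIs), which overlaps ribosomal RNA sequence, Malat1 (5698), mt-Rnr2 (3984), Fth1 (3152), Tmsb4x (2866), Rps29 (2749), Rpl41 (2317), Hist1h2ap (2125), Ptma (1836), mt-Rnr1 (1669), Actb (1607), Rplp1 (1587), Rps28 (1489) and Tpt1 (1393). Malat1, a nuclear RNA, was seen in 93.6% of globin-rich and 98.6% of globin-poor cells, against 94.6% of other cells. The nuclear RNAs Neat1 and Meg3 were seen in 23.4% and 21.3% of globin-rich and 29.2% and 31.9% of globin-poor cells. As free RNA was not removed, the presence of Malat1 does not show a nucleus.

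Cluster 17 was present in 14 of the 15 mice. In WT mice its share of the kept cells was 0.306% and 1.23% uninjured, 0.585% at 1 d, 1.16% and 0% at 7 d, and at 14 d it was 0.296% and 0.383%. In cKO mice it was 0.962% and 0.404% uninjured, 0.0818% and 1.63% at 1 d, 0.448% and 0.986% at 7 d, and at 14 d it was 0.529% and 0.268%. The mice of most groups differed as much from each other as the groups did. WT 7 d mouse 2 had 0 of 840 cells, and 3 counts would be 0.357%. Exact 95% intervals, which cover counting error only, ran from 0.0632% to 0.892% for the 3 cells of WT uninjured mouse 1 and from 1.10% to 2.31% for the 30 cells of cKO 1 d mouse 2.

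**Figure D3:**
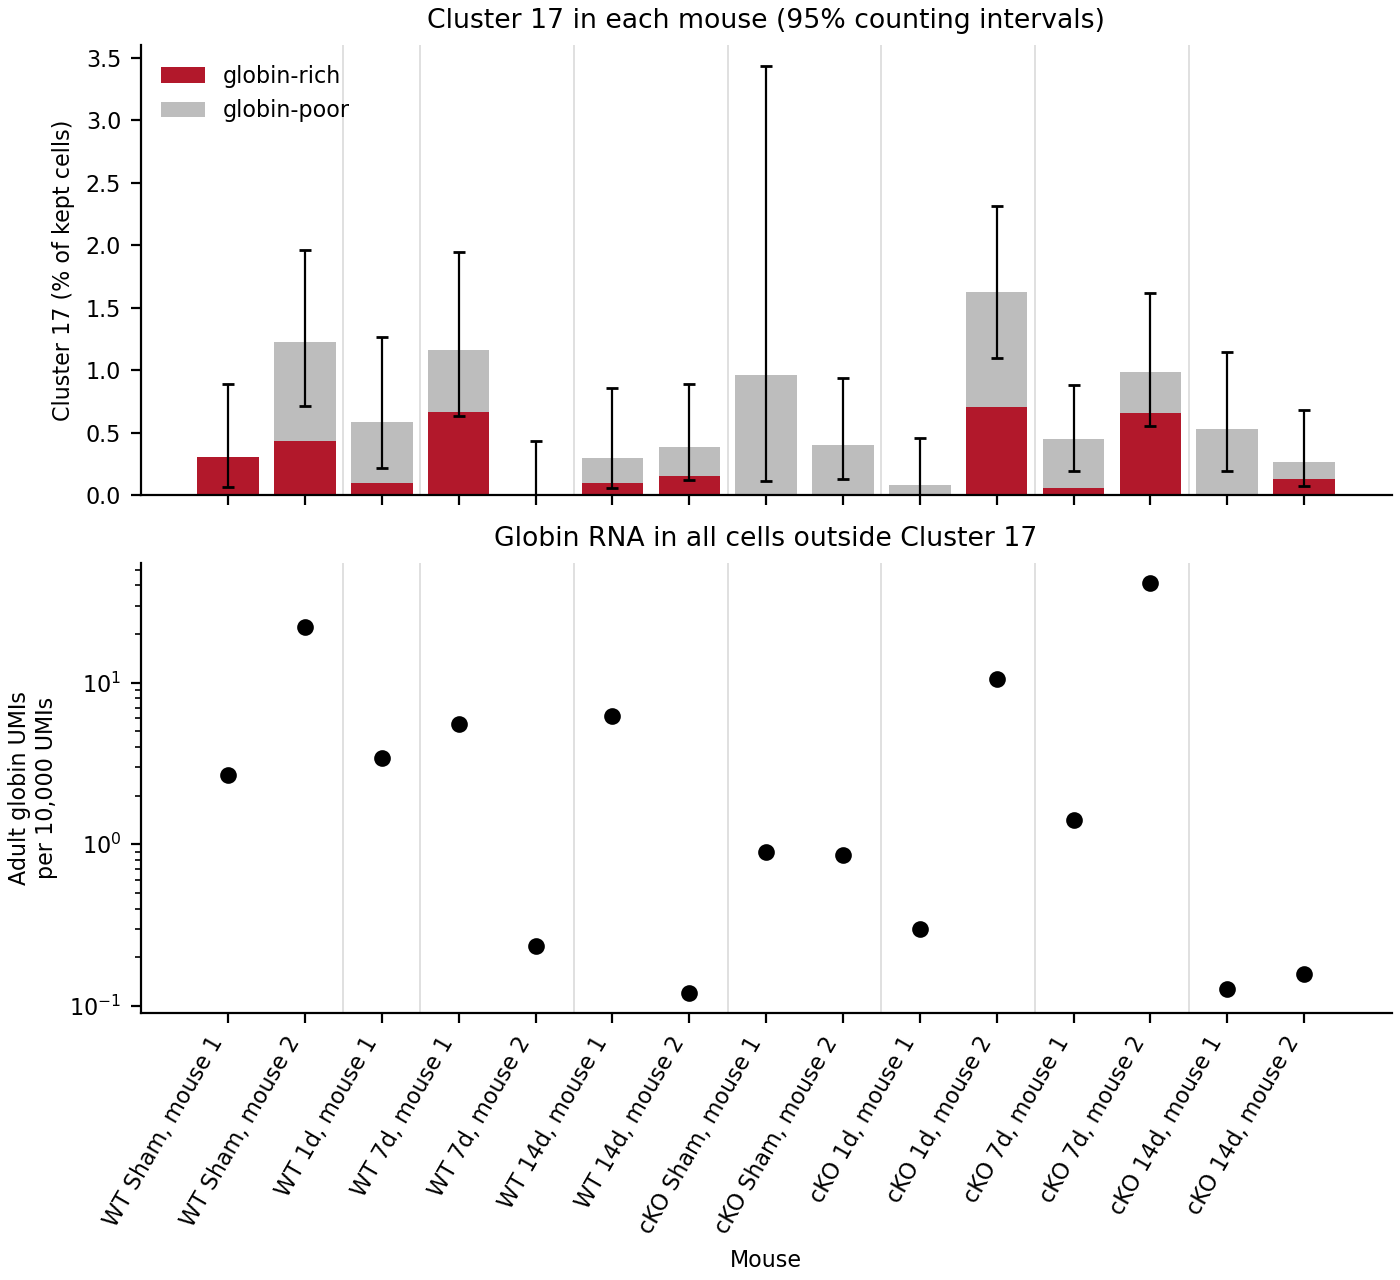
Upper panel: share of kept cells in Cluster 17, split by globin, with exact 95% intervals. Lower panel: adult globin UMIs per 10000 UMIs in all cells outside Cluster 17, on a log scale.

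The globin-rich cells were also counted alone. WT mice had 3 and 6 such cells uninjured, 1 at 1 d, 8 and 0 at 7 d, and at 14 d they had 1 and 2. The cKO mice had 0 and 0 uninjured, 0 and 13 a day after injury, then 1 and 10 at 7 d and 0 and 2 at 14 d. Of the 47 globin-rich cells, 37 thus came from WT uninjured mouse 2, WT 7 d mouse 1, cKO 1 d mouse 2 and cKO 7 d mouse 2.

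The share of Cluster 17 did not pass the threshold in any comparison by exact two-sided permutation of mice (adjusted p under 0.05 over 5 comparisons). The 11 injured mice had a mean of 0.579% (SD 0.492) and the 4 uninjured mice 0.725% (SD 0.443), a difference of -0.146 percentage points (exact permutation, p = 0.615, adjusted p = 0.943, smallest possible p 0.000733). Within mice 1 the difference was -0.117 and within mice 2 -0.164, and permuted within batches p was 0.622. Against uninjured mice, the difference was 0.0394 at 1 d (3 mice, p = 0.943), -0.0755 at 7 d (4 mice, p = 0.829) and -0.356 at 14 d (4 mice, p = 0.200), where the smallest possible p of the exact permutation was 0.0286. With these numbers of mice, a p above the threshold does not show equal shares.

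After injury, cKO minus WT, averaged over 1, 7 and 14 d, was 0.154 percentage points (11 mice, exact two-sided permutation within times, p = 0.759, adjusted p = 0.943, smallest possible p 0.00926). The 5 injured WT mice ranged from 0% to 1.16% with a median of 0.383%, and the 6 injured cKO mice from 0.0818% to 1.63% with a median of 0.488%. The direction differed between batches, with -0.329 within mice 1 and 0.435 within mice 2, and permuted within batches p was 0.656.

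Globin RNA outside Cluster 17 was measured per mouse. Per 10000 UMIs of all other cells, WT mice had 2.67 and 22.0 globin UMIs uninjured, 3.40 at 1 d, 5.54 and 0.234 at 7 d, and at 14 d they had 6.24 and 0.121. The cKO mice had 0.898 and 0.853 uninjured, 0.300 and 10.6 at 1 d, 1.42 and 41.3 at 7 d, and at 14 d they had 0.127 and 0.158. The 3 highest mice, cKO 7 d mouse 2, WT uninjured mouse 2 and cKO 1 d mouse 2, were also 3 of the 4 with the most globin-rich cells. In these 3 mice 43.4%, 30.7% and 45.7% of the other cells had a globin UMI, at medians of 3509, 1057 and 1514 UMIs per kept cell.

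Few cells carried much of these levels. The 3 highest mice had 5, 1 and 1 other cells of at least 10% globin, and with such cells left out their levels were 1.08, 2.72 and 3.67 per 10000. WT 7 d mouse 1, which had 0 such cells, was then the highest of all at 5.54. WT 14 d mouse 1 had 1 such cell and was at 0.227 without it.

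No comparison of this level passed the threshold. The mean log2 level was 0.33 (SD 2.97) in 11 injured and 1.37 (SD 2.19) in 4 uninjured mice, a difference of -1.04 (exact two-sided permutation, p = 0.536, adjusted p = 0.944; -0.19 within mice 1 and -1.92 within mice 2; p = 0.548 permuted within batches). Against uninjured mice the log2 difference was -0.23 at 1 d (3 mice, p = 0.943), 0.19 at 7 d (4 mice, p = 0.943) and -2.89 at 14 d (4 mice, p = 0.171, adjusted p = 0.857), all by exact two-sided permutation with a smallest possible p of 0.0286. At 14 d, 3 mice were below every uninjured mouse and WT 14 d mouse 1 lay above 3 of the 4 uninjured mice. Without that mouse the difference was -4.27 (3 and 4 mice, exact two-sided permutation, p = 0.0286, the smallest possible, adjusted p = 0.143).

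With other cells of at least 10% globin left out of every mouse, all 4 mice at 14 d lay below every uninjured mouse. The log2 levels at 14 d were -2.14 and -3.05 in WT and -2.98 and -2.66 in cKO mice, and the uninjured mice ranged from -0.23 to 1.45. The difference was -3.33 (4 and 4 mice, exact two-sided permutation, p = 0.0286, the smallest possible, adjusted p = 0.143), which did not pass the threshold.

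For genotype, the log2 difference of cKO minus WT after injury was -0.27 (11 mice, exact two-sided permutation within times, p = 0.944, adjusted p = 0.944, smallest possible p 0.00926). It was -3.70 within mice 1, with cKO lower at all 3 times, and 3.92 within mice 2, with cKO higher at both times that could be compared. With other cells of at least 10% globin left out it was -1.69 within mice 1 and 1.30 within mice 2, in the same directions, and -0.19 over both (11 mice, exact two-sided permutation within times, p = 0.833, adjusted p = 0.833). All 6 mice whose cell names give another condition are mice 2, and the part of the names in the difference between mice 1 and mice 2 was not tested. The batches and the sets of mice cannot be told apart.

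Part of the globin outside Cluster 17 lay in few cells. Cluster 1, labelled endothelial, had 33.3 globin UMIs per 10000, but 1.65 without its 5 cells of at least 10% globin. Cluster 10 (microglial) had 8.65 and 0.366 without 1 such cell, and Cluster 3 (neuronal) 8.61 and 1.23 without 1. With these cells left out and the mice pooled, Clusters 1 to 16 ranged from 0.346 (Cluster 6) to 2.90 (Cluster 2) per 10000. As medians over mice, with all cells kept, the order differed, with Cluster 7 lowest (0.160) and Cluster 1 highest (1.68). In Cluster 17 the level was 2309 with and 18.7 without its 47 globin-rich cells.

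Within Cluster 17, UMIs were summed per mouse and tested across all genes in the 9 mice with at least 5 cells, which held 4384 to 252108 UMIs. Of 157 genes that passed the filter on low counts, edgeR called 0 (0%) for injured against uninjured mice at an adjusted p under 0.05. Without adjustment 11 genes had a p under 0.05, while DESeq2 called 1 after it. For cKO against WT edgeR called 0 (0%), while 1 gene had an unadjusted p under 0.05 and the number called with DESeq2 was 0. Only 2 of the 9 mice were uninjured, and the filter kept few genes because the sums of several mice are small. Both uninjured mice were mice 2, and all mice 1 of the fit were injured. Injury and batch thus cannot be fully told apart in this fit. In the check on simulated counts, edgeR recovered few of the changed genes at this depth, so 0 called genes do not show equal expression. All 4 adult globins passed the filter and 0 were called, with a log2 difference above 0 in 4 for injury (median 3.24) and below 0 in 4 for cKO (median -2.12). Under the alternatives these signs turned in 12 of 52 values for injury and in 22 of 60 for genotype. In the main fit endothelial markers had the same signs as the globins, with 0 called by edgeR. They were above 0 in 5 of 5 for injury (median 3.28) and below 0 in 5 of 5 for cKO (median -2.98). Microglial markers were above 0 in 2 of 2 for injury (median 4.82) and for cKO (1.53). Oligodendrocyte markers were below 0 in 2 of 2 for injury (median -1.65) and for cKO (-0.99). Their part in the globin values was not tested. The mice of this fit with high endothelial levels were WT 1 d, WT 7 d and cKO 7 d mouse 1, all injured mice of the first batch.

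The gene called by DESeq2 was Hsp90ab1, a cytosolic chaperone gene, with a log2 difference of 2.59 (adjusted p = 4.66e-05) against 2.39 by edgeR (adjusted p = 0.467). It had 27 and 1 UMIs in the uninjured WT and cKO mice, 14, 13 and 2 in the injured WT mice and 41, 11, 378 and 80 in the injured cKO mice. In CPM after normalization the 2 uninjured mice were at 680 and 392 and the 7 injured mice at 1502 or more. Before normalization the groups overlapped, with 2 of 9835 UMIs in WT 14 d mouse 2 (2.03 per 10000) and 27 of 71164 in WT uninjured mouse 2 (3.79 per 10000). Of the 2 uninjured mice with too few cells for the fit, WT uninjured mouse 1 had 8 UMIs (4.09 per 10000) and cKO uninjured mouse 1 had 26 (15.2 per 10000). Of the 157 genes, 10 had groups without overlap after normalization. Without cKO uninjured mouse 2, WT uninjured mouse 2 was the lone uninjured mouse. Calls of that fit assume that it varies like the others and are not given. The fit kept 1626 genes instead of 157, with a median log2 difference of -0.439 for injury. Of the genes high in that mouse, S100a8, S100a9, Camp and Ngp had nearly all their Cluster 17 UMIs in 1 cell of it.

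The same test was made on the cells outside Cluster 17, in 15 mice and 18722 genes, to place their globin among all genes. For injured against uninjured mice edgeR called 0 (0%), while 1898 genes had an unadjusted p under 0.05 and the number called with DESeq2 was 222 (181 higher, 41 lower), none of them an adult globin. The log2 differences of the globins were -1.59 for Hbb-bt (adjusted p = 0.747), -1.13 for Hba-a2 (adjusted p = 0.782), -0.34 for Hbb-bs (adjusted p = 0.992) and -0.23 for Hba-a1 (adjusted p = 1.00). For cKO against WT after injury edgeR called 0 (0%), while 471 genes had an unadjusted p under 0.05 and the number called with DESeq2 was 1 (Retnlg). The globins had 1.03 for Hbb-bt, 0.37 for Hba-a2, 0.25 for Hba-a1 and -0.64 for Hbb-bs (adjusted p = 1.00 for each).

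Lists of erythroid genes outside Cluster 17 had no gene called by edgeR in the main fit either. For injury, 9 of 12 haem synthesis genes and 11 of 15 tested membrane genes were lower, with median log2 differences of -0.24 and -0.60, beside 10095 of all 18722 genes lower and a median of -0.04. For cKO, 8 of 12 and 13 of 15 were higher, with medians of 0.09 and 0.61, beside 11101 of 18722 higher and a median of 0.07. The other erythroid lists were mixed. Tested enzyme, late maturation, iron and progenitor genes were lower for injury in 8 of 12, 13 of 18, 4 of 10 and 3 of 6, with medians of -0.21, -0.06, 0.07 and 0.05. For cKO they were higher in 6, 9, 5 and 3 of the same numbers, with medians of -0.01, -0.01, 0.01 and -0.04.

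Markers of some other cell types all had the same sign outside Cluster 17, with 0 called by edgeR. For injury, all 7 endothelial, 6 astrocyte and 6 neuronal markers were lower (medians -0.31, -0.83 and -0.89) and all 7 monocyte and macrophage markers higher (median 2.19). All 3 tested lymphocyte markers were lower too (median -1.67). All 6 microglial markers (median 0.81) and all 6 tested cell cycle genes (1.41) were higher. So were all 4 tested platelet, 4 ependymal, 4 fibroblast and 3 Schwann cell markers (medians 0.46, 0.45, 0.47 and 0.43). For cKO, all 10 neutrophil and myeloid markers were higher (median 3.35) and all 7 endothelial markers lower (median -0.38). All 6 oligodendrocyte, 4 fibroblast, 3 Schwann cell and 3 tested lymphocyte markers were higher too (medians 0.16, 0.66, 0.54 and 2.05). All 4 ependymal markers were lower (median -1.04). Their part in the values of the erythroid lists was not tested.

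No list was tested as a whole. For the membrane genes, cKO 7 d mouse 2 carried most of the Slc4a1 UMIs of Cluster 17. The fit outside Cluster 17 was also run without that mouse, but its part in the values of the membrane list was not tested.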

How the data were processed

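The authors counted UMIs with Cell Ranger on mm10, kept cells with under 25% mitochondrial UMIs and over 200 genes, and clustered them with Seurat and Harmony in R 4.1.2. The deposited matrix holds raw UMI counts (count) of 55487 genes in 18203 cells. The deposited cell table gives mitochondrial and haemoglobin UMIs as percent of the UMIs of a cell, with batch and cluster. Its totals equal the summed counts in all 18203 cells.

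Cluster 17 is the authors' cluster. The members and lists were chosen with earlier results of these data known. Mice needed 50 kept cells, and 5 cells of Cluster 17 for the fit within it. The 15 mice had 536263 to 9008729 UMIs. Shares and levels were compared by exact permutation of mice with Python 3.11.15, numpy 2.4.6, pandas 2.3.3 and scipy 1.17.1. Summed counts were tested across all genes with edgeR 4.0.16 (TMM, filterByExpr, quasi-likelihood) in R 4.3.3, adjusted by Benjamini-Hochberg with a threshold of 0.05, with genotype and injury in the design within Cluster 17 and all 8 groups in the fit outside it, where WT 1 d has 1 mouse. DESeq2 1.42.0 was the other tool, and both were tested on simulated counts. Intervals are Clopper-Pearson at 95% and cover counting error only. Figures used matplotlib 3.10.9.

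The mouse number equals the batch and pairs mice of different conditions. As a check, deviations of the mice from their group means outside Cluster 17 had a median correlation of 0.113 between conditions (12 of 21 pairs above 0.1). Named genes were the adult globins, the 15 most abundant others, the 15 largest folds among genes in at least 10% of the cells, listed erythroid genes in at least 10%, the most abundant marker of each other cell type and up to 10 genes per comparison with calls. Some genes that met this rule are not named. Slc4a1, Gata1, Klf1, Epor, Kit, Ryk, Gfap, Hsp90ab1 and the genes called under an alternative were otherwise singled out after their values were seen. Alternatives were other tools, filters, cell rules, denominators, batches, conditions of the cell names, the replicate block and each mouse left out. Globin-rich and globin-poor cells alone were added as alternatives after seeing the data. Free RNA and doublets were not removed.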

Additional observations from a re-analysis of the deposited data

Results flagged for a closer look

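Values of single mice were examined in 7 groups of 4 to 8 mice for 3 measures each, 21 sets in all. In 3 of them a mouse lay far from the others, where chance gives about 1 in 20. The groups overlap and 2 of the 3 are the same value of the same mouse, so the 3 cannot be counted as separate. WT 7 d mouse 1 had the highest percent of globin-rich cells among 5 injured WT mice and among 8 mice of the first batch, 0.665% (8 cells), with a median of 459.5 UMIs in its Cluster 17 cells. All 8 cells had under 50% globin, and the cut of 10% was chosen after the values were seen. Over its Cluster 17 cells the endothelial list had 222 UMIs per 10000, while Alas2 had 1 UMI and Slc4a1 had 0. WT 14 d mouse 1 had the highest globin level outside Cluster 17 among 4 mice at 14 d, 6.24 UMIs per 10000 (2.64 on the log2 scale). It had 1 other cell of at least 10% globin, and without such cells it was at 0.227, beside 0.121 to 0.158 in the other 3 mice at 14 d.

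The difference between cKO and WT mice after injury in globin outside Cluster 17 turned between the batches. Among mice 1 it was -3.70 on the log2 scale, with cKO lower in 3 of 3 pairs of the same time, and among mice 2 it was 3.92, with cKO higher in 2 of 2 pairs. With other cells of at least 10% globin left out it was -1.69 among mice 1 and 1.30 among mice 2, with the same numbers of pairs. The difference between the batches was not tested.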

How the results depend on the processing

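None of the 225 recomputed differences in the Cluster 17 share and the globin level outside it passed the threshold (lowest adjusted p = 0.143), but signs changed, and the cause was not tested. At single times the exact two-sided permutation had a smallest possible p of 0.0286 in the main comparison, which on its own gives an adjusted p of 0.143 over 5 comparisons. A single time thus could not pass alone even with complete separation, and 0 passes there do not show that a result is stable.

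For the share of Cluster 17, in percentage points, injured minus uninjured was 0.0321 for all cells of 50% globin or more and 0.0484 for globin-rich cells alone, and -0.286 to 0.0216 with each mouse left out. At 1 d it was -0.0431 for globin-poor cells alone, -0.300 in the first batch, -0.259 with the conditions of the cell names, and -0.391 to 0.381 with each mouse left out. At 7 d it was 0.0485 for cells of 50% globin or more, 0.0693 for cells of at least 500 UMIs, 0.160 for globin-rich cells alone, 0.172 in the first batch, and -0.247 to 0.141 with each mouse left out. For cKO minus WT it was -0.118 for cells of at least 500 UMIs, -0.329 in the first batch, and -0.103 (without cKO 1 d mouse 2) to 0.411 with each mouse left out.

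For globin outside Cluster 17, on the log2 scale, the difference at 1 d was 1.29 in the second batch and -1.36 to 1.21 with each mouse left out. At 7 d it was -0.37 in other cells under 10% globin, -0.48 in the second batch, -0.82 with the conditions of the cell names, and -1.08 to 1.41 with each mouse left out. For cKO minus WT it was 3.92 in the second batch and -1.22 to 0.68 with each mouse left out.

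Counts of called genes depended on the tool and the filter. Within Cluster 17, injury gave 1 gene by DESeq2 and 0 to 9 with each mouse left out, 9 without cKO uninjured mouse 2. Outside it, injury gave 222 by DESeq2, 695 with no filter on low counts, 1 (Gpr84) with the replicate block, and 0 to 83 with each mouse left out, 83 without cKO 7 d mouse 2. For cKO against WT outside it, DESeq2 gave 1 and no filter gave 91. The other counts were 0 in fits with more than a lone uninjured mouse. Injury within Cluster 17 was not run with at least 10 cells per mouse or with the conditions of the cell names. Both left few uninjured mice. The fits without either uninjured mouse were run although each left a lone uninjured mouse, and their counts for injury are not given.

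Among globins outside Cluster 17, no filter called Hbb-bt (-1.60) and Hba-a2 (-1.14) lower after injury. That setting called 695 of 41164 genes (1.69%), 388 of them lower. With the replicate block, injury gave 0.12 for Hbb-bs and 0.16 for Hba-a1, and genotype gave -0.86 for Hba-a1. Genotype gave -0.14 for Hba-a1 in other cells under 10% globin, and -0.24 where cell names set the conditions. With each mouse left out, injury ranged from -2.22 to 1.64 for Hbb-bt, -1.24 to 0.76 for Hbb-bs, -1.08 to 0.93 for Hba-a1 and -1.83 to 0.31 for Hba-a2. Genotype ranged from -0.23 to 1.93 for Hbb-bt, -2.14 to 1.14 for Hbb-bs, -1.45 to 1.77 for Hba-a1 and -1.03 to 1.53 for Hba-a2. Within Cluster 17 the sign for the 4 globins differed from the main fit in 12 of 52 values for injury and 22 of 60 for genotype. Depth limits the fit within Cluster 17 to 157 genes.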
